A study of Mus musculus with 6 samples.

Results

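Accessible chromatin at 9 proneural genes, *Neurog1*, *Neurog2*, *Neurog3*, *Neurod1*, *Neurod2*, *Neurod4*, *Neurod6*, *Atoh1* and *Ptf1a*, was compared between neural stem and progenitor cells (NSPCs) with and without the *Sox2* enhancer cluster SRR2–18. An interval is a stretch of the genome in which the authors called 1 or more ATAC-seq peaks. It was counted at a gene when the nearest protein-coding transcription start site (TSS) to its strongest summit, the one with the highest fold enrichment over local background, belonged to that gene and lay at most 50 kb away. By this rule, 34 of the 82885 intervals in parent NSPCs and 28 of the 107480 intervals in ΔSRR2–18 NSPCs belonged to the 9 genes.

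The proneural genes encode basic helix-loop-helix (bHLH) transcription factors that bind E-box sequences as dimers with the E proteins *Tcf3*, *Tcf4* and *Tcf12*. Neurogenins and *Atoh1* commit neural progenitors to a neuronal fate and switch on NeuroD genes, which carry differentiation forward. They also raise Notch ligands such as *Dll1*, and neighbouring cells answer through *Hes1* and *Hes5*, which hold proneural genes down. In dividing NSPCs, proneural genes are mostly low or fluctuating, while SOX2 maintains the progenitor state.

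Parent NSPCs were differentiated from a 129S1/Cast F1 hybrid ESC line (clone 5B) with mCherry joined to *Sox2* on the 129 allele, and ΔSRR2–18 NSPCs came from 1 clone of that reporter line (47D) with SRR2–18 deleted by Cas9 on both alleles. All cells were kept on poly-D-lysine and laminin in N2B27 with EGF and bFGF, and 3 cultures per genotype were sequenced. ATAC-seq reads mark DNA that is open to a transposase, and the deposited peak lists pool the 3 cultures of a genotype. Each value below is therefore 1 number per genotype without a replicate error, no difference between genotypes could be tested, and a clone effect cannot be told apart from an effect of the deletion. Fewer cells with an open site and less opening per cell cannot be told apart either.

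Reads at a summit, meaning the height of the read pileup, were solved from the deposited fold enrichment and −log10 p. Local background went down to 38.8 reads for parent and 19.7 for ΔSRR2–18 peaks, so parent reads were divided by 1.98 wherever they are called depth-scaled. Over all 40114 overlapping pairs of intervals, the median log2 ratio of depth-scaled reads, ΔSRR2–18 over parent, was −0.24, and member values are read against that shift. Between the cleavage sites of the guide RNAs on chromosome 3, after bases 34653746 and 34670054, the parent list held 4 intervals and the ΔSRR2–18 list held 0. All 7 NSPC markers, among them *Nes*, *Sox1* and *Pax6*, had an interval within 1 kb of a TSS in each list. Neuronal markers had one at 4 of 7 genes in parent and 5 of 7 in ΔSRR2–18 NSPCs. Epithelial markers had one at 1 and 2 of 3 genes, and blood and endothelial markers at 0 of 3 genes each. The share of all genes with such an interval is not given, so these counts have no background. The part of these cells in the results was not tested.

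The promoters of 3 genes are printed because an interval lay across their TSS in parent NSPCs and not in the conservative ΔSRR2–18 list. They are the RefSeq promoters (GRCm38.p6, which has the mm10 coordinates) from 250 bases before the start to 50 after it, on the gene's strand. Capitals mark matches, on either strand, to the NEUROG, NEUROD and ATOH E-box CAGATG, the SOX motif ACAANGG, the AP-1 motif TGANTCA or the HES motif CACGNG. The windows are chr2:79456587-79456886 for *Neurod1*, chr10:130280205-130280504 for *Neurod4* and chr6:55681214-55681513 for *Neurod6*, all on the reverse strand. The RefSeq start used lies 115 bp from the GENCODE TSS at *Neurod1*, 14 bp from it at *Neurod4* and at it at *Neurod6*.
Neurod1 promoter: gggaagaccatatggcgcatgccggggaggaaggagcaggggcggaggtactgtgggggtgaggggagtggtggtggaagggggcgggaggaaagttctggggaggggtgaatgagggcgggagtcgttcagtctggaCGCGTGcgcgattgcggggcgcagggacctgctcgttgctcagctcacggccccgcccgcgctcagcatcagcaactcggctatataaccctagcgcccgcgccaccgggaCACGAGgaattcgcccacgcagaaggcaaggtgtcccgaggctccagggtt
Neurod4 promoter: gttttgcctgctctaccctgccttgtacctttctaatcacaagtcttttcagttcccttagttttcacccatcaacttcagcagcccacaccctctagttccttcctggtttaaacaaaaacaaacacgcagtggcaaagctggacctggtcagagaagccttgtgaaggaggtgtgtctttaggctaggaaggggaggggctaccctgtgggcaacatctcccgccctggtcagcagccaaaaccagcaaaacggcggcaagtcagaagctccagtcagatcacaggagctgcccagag
Neurod6 promoter: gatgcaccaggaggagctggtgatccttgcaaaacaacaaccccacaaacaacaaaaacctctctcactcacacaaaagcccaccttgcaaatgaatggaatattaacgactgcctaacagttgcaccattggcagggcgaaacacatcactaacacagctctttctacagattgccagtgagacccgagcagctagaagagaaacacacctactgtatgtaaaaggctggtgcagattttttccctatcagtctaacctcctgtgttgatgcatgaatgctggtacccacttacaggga
The *Neurod1* promoter was the most GC-rich of these at 66.7% and held 2 HES motifs. The *Neurod4* and *Neurod6* promoters had GC contents of 52.3% and 46.3% and held none of the 4 motifs in these windows. The 201 bp around the parent TSS summits reach past these promoter windows. There, *Neurod6* had 2 E-boxes, *Neurod1* had 1 SOX and 1 HES motif, and *Neurod4* had none of the 4.

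Other windows of 201 bp, centred on the strongest summit and printed on the forward strand, carry the distal and coding sites described below. They are the *Neurod1* coding-exon summit that was called in ΔSRR2–18 NSPCs alone (chr2:79454244-79454444), the *Neurod6* distal summit with more reads in ΔSRR2–18 NSPCs (chr6:55661591-55661791), the *Ptf1a* upstream summit called in ΔSRR2–18 NSPCs alone (chr2:19421482-19421682), the *Atoh1* promoter summit (chr6:64728922-64729122) and the *Neurog2* coding summit of ΔSRR2–18 NSPCs (chr3:127634159-127634359).
Neurod1 coding exon: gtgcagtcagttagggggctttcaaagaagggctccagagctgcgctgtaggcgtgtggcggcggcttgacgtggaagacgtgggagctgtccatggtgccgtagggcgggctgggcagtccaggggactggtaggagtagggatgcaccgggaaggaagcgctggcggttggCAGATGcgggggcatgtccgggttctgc
Neurod6 distal: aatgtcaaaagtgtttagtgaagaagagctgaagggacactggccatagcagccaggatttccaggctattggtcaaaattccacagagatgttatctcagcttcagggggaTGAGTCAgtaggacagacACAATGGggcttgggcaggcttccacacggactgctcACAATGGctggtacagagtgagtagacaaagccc
Ptf1a upstream: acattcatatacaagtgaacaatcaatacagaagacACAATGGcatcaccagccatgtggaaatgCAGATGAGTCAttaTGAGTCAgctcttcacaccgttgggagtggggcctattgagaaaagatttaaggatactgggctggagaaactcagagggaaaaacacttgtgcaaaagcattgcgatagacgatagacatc
Atoh1 promoter: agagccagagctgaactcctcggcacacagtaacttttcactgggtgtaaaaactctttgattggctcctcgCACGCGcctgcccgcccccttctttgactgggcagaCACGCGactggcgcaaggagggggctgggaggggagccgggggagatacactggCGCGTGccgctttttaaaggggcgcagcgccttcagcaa
Neurog2 coding exon: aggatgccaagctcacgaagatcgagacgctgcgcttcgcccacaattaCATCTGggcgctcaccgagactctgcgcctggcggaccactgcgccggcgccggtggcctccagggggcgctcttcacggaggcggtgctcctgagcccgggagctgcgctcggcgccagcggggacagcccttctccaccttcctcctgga
The *Neurod6* distal window held 2 SOX motifs and 1 AP-1 motif, more SOX motifs than any other window around a member summit. In the *Ptf1a* window, an E-box and an AP-1 motif overlapped, with another AP-1 motif and a SOX motif nearby. The *Atoh1* promoter window held 3 HES motifs, and each of the coding-exon windows held 1 E-box.

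Start sites of 3 NeuroD genes were covered in parent NSPCs alone. A covered TSS here means an interval across the outermost annotated start of the gene, and starts of its other transcripts were not counted. In parent NSPCs, 6 of the 9 genes had an interval across the TSS (*Neurog1*, *Neurog2*, *Neurod1*, *Neurod4*, *Neurod6* and *Atoh1*), against 53.9% of all protein-coding genes. In ΔSRR2–18 NSPCs, 3 of the 9 did (*Neurog1*, *Neurog2* and *Atoh1*), against 56.7% of all genes. Of the 6 genes with a covered TSS in parent NSPCs, 3 thus had none in ΔSRR2–18 NSPCs, while 4.84% of all genes with a covered parent TSS lacked one in the ΔSRR2–18 list. No member gained a covered TSS, which 9.54% of all genes with a covered ΔSRR2–18 TSS did. With the optimal lists, the other set that the authors deposited, ΔSRR2–18 NSPCs had 5 covered members, *Neurod1* and *Ptf1a* being added, and 2 of 6 genes (*Neurod4* and *Neurod6*) lacked one, beside 4.51% of all genes.

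*Neurod4*, a NeuroD gene of early differentiating neurons, had the highest fold enrichment of any member interval in the parent list. Its TSS interval (chr10:130279875-130280555) had a fold enrichment of 22.6, 901 summit reads and 456 depth-scaled reads, with the summit 2 bp from the TSS in the 5′ UTR exon. It ranked in the top 4.44% of the parent list by fold enrichment and the top 41.1% by reads. The ΔSRR2–18 list held no interval at the gene, and the nearest one began 35143 bp away from this interval. A summit with 456 reads would have stood in the top 39.7% of the ΔSRR2–18 list by reads. The other parent intervals at *Neurod4*, 20.6 kb downstream of the TSS (fold enrichment 13.6, 542 reads) and 13.7 kb upstream (11.3, 448 reads), also had no counterpart in either ΔSRR2–18 list.

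*Neurod1*, a gene that promotes neuronal and endocrine differentiation, had different sites in the 2 genotypes. In parent NSPCs, the interval across its TSS (chr2:79456414-79457246) had a single summit 115 bp upstream of the TSS with a fold enrichment of 19.5 and 1744 reads, or 883 depth-scaled reads. The conservative ΔSRR2–18 list held no interval there, and the optimal list held a weaker one (chr2:79456592-79457020) with a fold enrichment of 5.66 and 139 reads. Within the gene, the interval was in the other list. ΔSRR2–18 NSPCs had an interval over the coding exon (chr2:79453924-79454672) with its summit 2407 bp downstream of the TSS, a fold enrichment of 24.5 and 569 reads, in the top 3.60% of that list by fold enrichment. The nearest conservative parent interval was 1741 bp away, and no optimal one overlapped it. This was the highest fold enrichment of any member interval in the ΔSRR2–18 list, and the summit lies in coding sequence of *Neurod1* and in introns of *Cerkl* and *Gm26755*. The shared *Neurod1* interval, 42.8 kb upstream between genes, had 669 reads (339 depth-scaled, fold enrichment 16.8) in parent and 207 reads in ΔSRR2–18 NSPCs, a log2 ratio of −0.71 for reads and −1.49 for fold enrichment. A ΔSRR2–18-only interval with 396 reads and a fold enrichment of 10.8 lay 40.3 kb upstream.

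*Neurod6*, which is typical of cortical excitatory neurons, had a weak TSS interval in parent NSPCs alone (chr6:55680990-55681611). Its fold enrichment was 4.72, its IDR score 615 on a scale to 1000, and its 210 reads became 106 depth-scaled reads, which would have stood at the top 97.4% of the ΔSRR2–18 list. When only peaks with an IDR score of at least 830 were kept, this TSS dropped out and 5 parent and 2 ΔSRR2–18 genes remained.

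**Figure D1:**
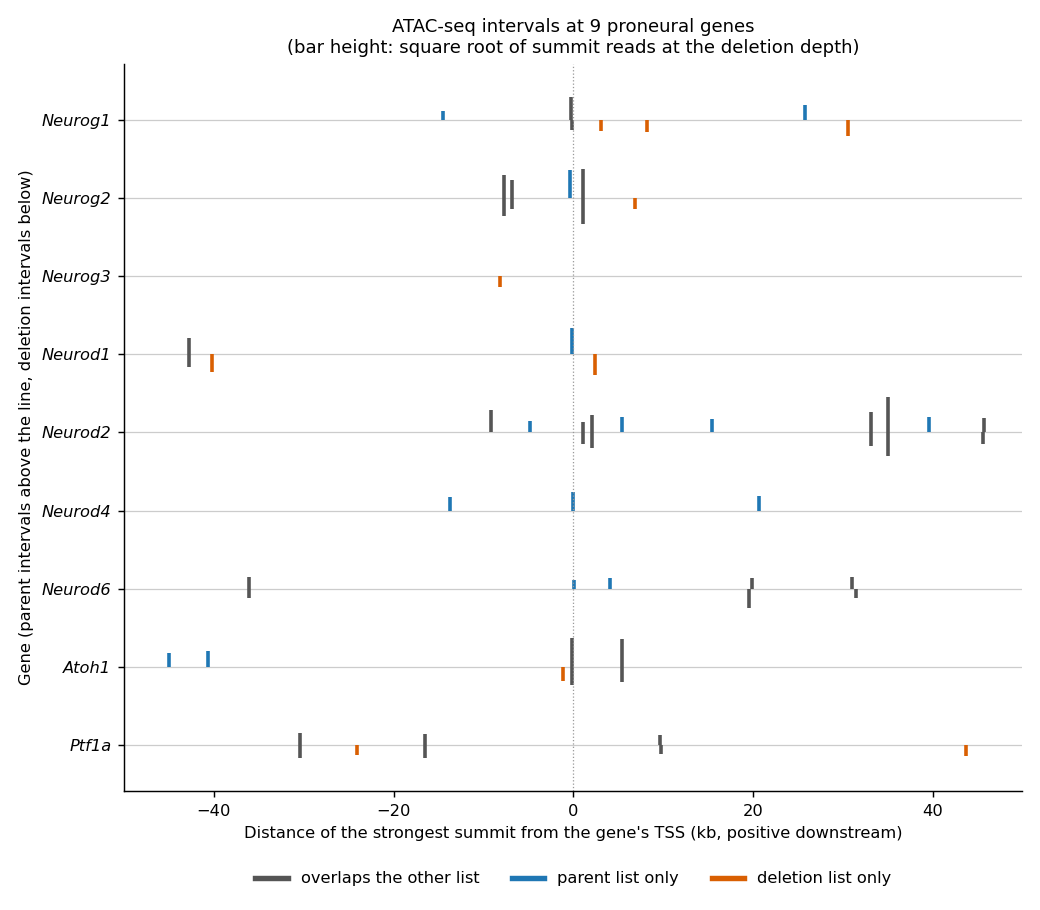
Distance of each interval's strongest summit from the TSS of its gene (x axis, kb, positive downstream), with parent intervals above and ΔSRR2–18 (deletion) intervals below each gene's line. Bar height is the square root of depth-scaled summit reads, grey bars overlap the other list, and the TSS of *Neurod1*, *Neurod4* and *Neurod6* carry parent bars only.

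At the 3 genes whose TSS was covered in both lists, summit reads were lower in ΔSRR2–18 NSPCs at each of them, as they were at 86.8% of all genes covered in both. The background is that over 11238 genes with a covered TSS in both lists, the median log2 ratio of depth-scaled reads was −0.46, and 11.8% had a ratio of −1 or lower. *Neurog1* and *Atoh1* were among the genes at −1 or lower, and *Neurog2* was not.

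*Neurog1*, a determination factor of sensory and hindbrain neurons, had 1 summit 242 bp upstream of its TSS in parent NSPCs with 1376 reads (696 depth-scaled, fold enrichment 16.0). In ΔSRR2–18 NSPCs, an interval of 1466 bp covered the same place with 6 summits of 42 to 142 reads, the strongest 148 bp upstream with a fold enrichment of 5.48 and an IDR score of 687. The log2 ratio was −2.29 for reads and −1.54 for fold enrichment, and no ΔSRR2–18 summit lay within 50 bp of the parent one. The interval ranked in the top 29.5% of the parent list and the top 89.7% of the ΔSRR2–18 list by reads.

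*Atoh1*, which specifies cerebellar granule cells and hair cells, had 2210 reads (1119 depth-scaled) at its TSS summit in parent NSPCs and 439 reads in ΔSRR2–18 NSPCs, a log2 ratio of −1.35, with fold enrichments of 14.2 and 8.79. The same TSS interval held a second matched summit 391 bp downstream of the start with 607 depth-scaled and 339 reads, a log2 ratio of −0.84. The interval 5.4 kb downstream of the TSS, on the side where the known *Atoh1* enhancer lies, was the member interval with the highest fold enrichment among shared ones in the parent list (17.6). It had 1994 reads (1009 depth-scaled) in parent and 296 in ΔSRR2–18 NSPCs, a log2 ratio of −1.77. The promoter and the downstream interval of *Atoh1* were thus open in each genotype, with fewer depth-scaled reads in ΔSRR2–18 NSPCs.

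*Neurog2*, a driver of cortical neurogenesis, differed by site. Its gene interval (chr3:127633085-127634615 in parent NSPCs) covered the TSS and the coding exon, with the strongest summit 1122 bp downstream of the TSS in coding sequence. That summit had 2257 reads (1142 depth-scaled, fold enrichment 11.7) in parent and 872 reads (fold enrichment 15.7) in ΔSRR2–18 NSPCs, a log2 ratio of −0.39 for reads and 0.42 for fold enrichment, so the measures disagreed in sign. The interval just upstream (chr3:127632389-127633009), with its summit 404 bp before the TSS, had 2057 reads (1041 depth-scaled) and a fold enrichment of 10.4 in parent NSPCs and no counterpart in either ΔSRR2–18 list. Depth-scaled reads of that size stood in the top 14.5% of the ΔSRR2–18 list, whose gene interval began 90 bp away. The upstream pair at 7.7 kb had 705 depth-scaled and 419 reads (log2 ratio −0.75), and the pair at 6.8 kb had 435 and 162 (−1.43). The coding-exon summit had the ratio nearest to 0 of the 5 matched summits at *Neurog2*.

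**Figure D2:**
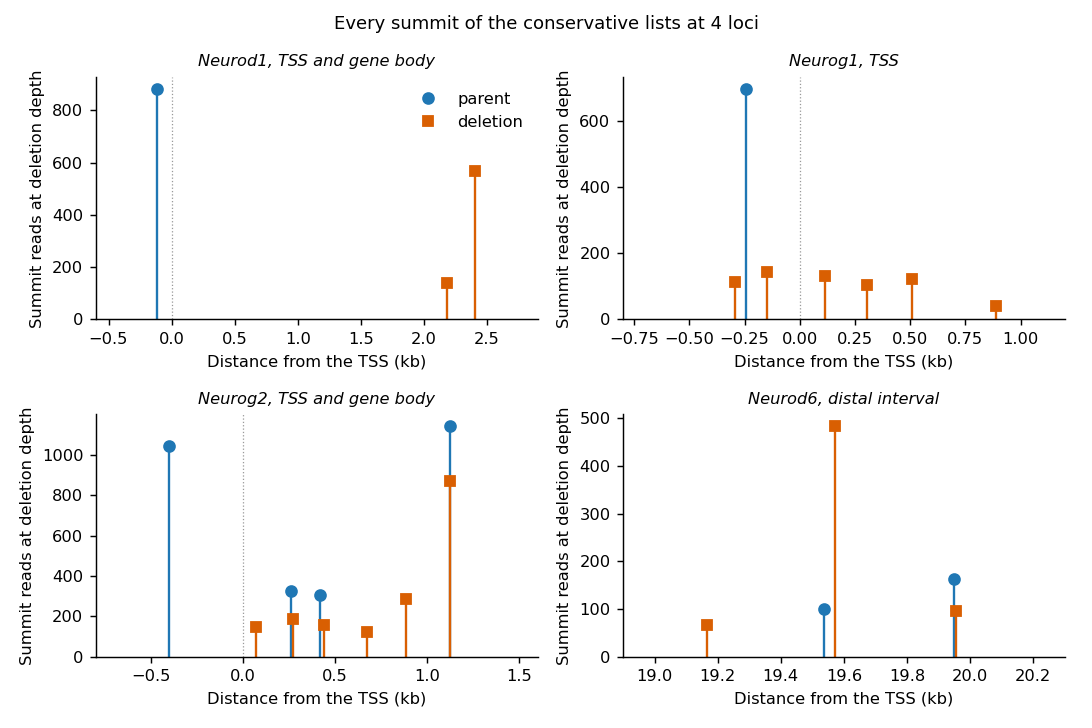
Every summit of the conservative lists at *Neurod1*, *Neurog1*, *Neurog2* and a distal *Neurod6* interval, by distance from the TSS (x axis, kb) and depth-scaled reads (y axis, from 0), with circles for parent and squares for ΔSRR2–18 (deletion) NSPCs. The parent summits 115 bp (*Neurod1*), 242 bp (*Neurog1*) and 404 bp (*Neurog2*) upstream have no ΔSRR2–18 summit within 50 bp.

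Counts over the whole 50 kb range did not set the proneural genes apart in the same way. In parent NSPCs, 15 of the 34 intervals (44.1%) overlapped no ΔSRR2–18 interval, beside 52.3% of the whole parent list. In ΔSRR2–18 NSPCs, 10 of the 28 intervals (35.7%) overlapped no parent interval, beside 63.1% of that list. Intervals were found at 8 of the 9 genes in each list, where the share over all protein-coding genes was 73.6% for parent and 77.2% for ΔSRR2–18 NSPCs. Parent intervals outnumbered ΔSRR2–18 intervals at 4 genes, which was so for 27.8% of all genes with an interval, and the reverse held at 4 others. The genes with more parent intervals were *Neurod2* (10 and 5), *Neurod4* (3 and 0), *Neurod6* (5 and 3) and *Atoh1* (4 and 3). Those with more ΔSRR2–18 intervals were *Neurog1* (3 and 4), *Neurog3* (0 and 1), *Neurod1* (2 and 3) and *Ptf1a* (3 and 5), and *Neurog2* had 4 in each. The ΔSRR2–18 list is the longer one, and when it was cut to the parent number by fold enrichment, its member intervals numbered 17 and the parent intervals without counterpart 24. The share of the whole parent list without counterpart after this cut is not given, so the 24 cannot be read against 52.3%.

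Among the 15 parent-only intervals, 11 had at least 200 depth-scaled reads, beside 25112 of all 43385 parent-only intervals. Of the 23 parent intervals with at least 200 depth-scaled reads, 11 had no counterpart, beside 43.7% of all such parent intervals. Of the 15 ΔSRR2–18 intervals with at least 200 reads, 4 had none, beside 57.9%. Among the strongest 25% of the parent list by reads were 6 member intervals, of which 2 (the *Neurod1* TSS and the *Neurog2* upstream interval) had no counterpart, beside 24.9%. Of the 15 parent-only intervals, 13 were also absent from the optimal ΔSRR2–18 list, and all 10 ΔSRR2–18-only intervals were absent from the optimal parent list. An IDR score of 1000 was reached by 12 of the 15 parent-only and 6 of the 10 ΔSRR2–18-only intervals. Shares of all parent-only and all ΔSRR2–18-only intervals absent from the other optimal list, or with this score, are not given. The member counts by absence and by score thus have no background.

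**Figure D3:**
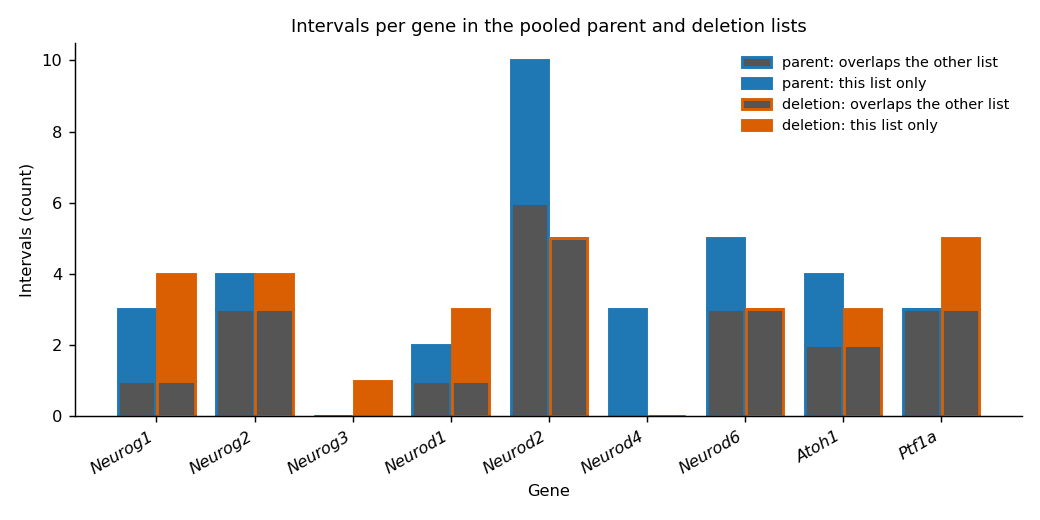
Number of intervals per gene (y axis) in the parent list (left bar) and the ΔSRR2–18 (deletion) list (right bar), split into intervals that overlap the other list (grey) and those of 1 list only (colour). *Neurod4* has 3 parent-only intervals and none from ΔSRR2–18 NSPCs, and *Neurog3* has a single ΔSRR2–18-only interval.

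*Neurog1* had parent-only intervals 25.8 kb downstream (fold enrichment 14.2, 566 reads) and 14.5 kb upstream (5.22, 207 reads), the latter with a counterpart in the optimal ΔSRR2–18 list. Its ΔSRR2–18-only intervals lay 3.0, 8.2 and 30.6 kb downstream, and the one at 8.2 kb had the highest fold enrichment of them, at 9.39 with 193 reads. *Neurog2* had 1 ΔSRR2–18-only interval 6.9 kb downstream with a fold enrichment of 8.08 and 166 reads. *Atoh1* had parent-only intervals 45.0 and 40.6 kb upstream, with fold enrichments of 7.56 and 10.5. Its ΔSRR2–18-only interval, 1179 bp upstream of the TSS with a fold enrichment of 5.57 and 272 reads, lay 174 bp from a parent interval. *Neurog3*, known for endocrine pancreas, had its only interval 8.1 kb upstream in an intron of *Fam241b* in ΔSRR2–18 NSPCs, with a fold enrichment of 7.99 and an IDR score of 674. TSSs of *Fam241b* lie 22040 bp upstream and 6780 bp downstream of that of *Neurog3*, so the rule reaches 11.0 kb upstream and 3.39 kb downstream of it.

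*Neurod2*, which acts in maturing forebrain neurons, had 10 parent intervals, the highest number of the 9 genes, and none across its TSS in either list. Its strongest site was an interval 35.0 kb downstream (chr11:98294296-98295105) with 3232 reads (1636 depth-scaled, fold enrichment 16.7) in parent and 763 reads (fold enrichment 18.3) in ΔSRR2–18 NSPCs, a log2 ratio of −1.10 for reads and 0.13 for fold enrichment. The nearest intervals to the TSS lay in the gene, with summits 1136 and 2102 bp downstream in parent NSPCs, and both were shared, at log2 ratios of 0.16 and −0.26. All 5 ΔSRR2–18 intervals at *Neurod2* were shared, while 4 of 10 parent intervals were not. Of those 4, the one 15.4 kb downstream had the highest fold enrichment, at 11.7 with 464 reads. The parent interval 9.2 kb upstream, with 1272 reads, overlapped a ΔSRR2–18 interval of 132 reads that lies nearer to another gene, with summits 520 bp apart.

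At *Neurod6*, the shared interval about 20 kb downstream of the TSS held summits that differed in opposite directions. In parent NSPCs, its stronger summit lay 19.95 kb downstream with 321 reads (162 depth-scaled) and a fold enrichment of 8.08, and the other lay 19.54 kb downstream with 200 reads (101 depth-scaled, 5.04). In ΔSRR2–18 NSPCs, the summit at 19.57 kb had 484 reads and a fold enrichment of 23.1, in the top 5.51% of the list, while that at 19.95 kb had 97 reads (4.69). Summits matched within 50 bp thus gave a log2 ratio of 2.26 at the first site and −0.74 at the second, 2.26 being the highest of the 27 matched member summits. The window around the summit with more reads in ΔSRR2–18 NSPCs is the one with 2 SOX motifs and 1 AP-1 motif printed above. The shared interval 36.1 kb upstream had 385 reads (195 depth-scaled) in parent and 110 in ΔSRR2–18 NSPCs, a log2 ratio of −0.82. In the shared interval about 31 kb downstream, the strongest summits, also of 385 and 110 reads, lay 493 bp apart, and the parent summit at the ΔSRR2–18 site had 101 depth-scaled reads, a log2 ratio of 0.13. The parent-only interval with the highest fold enrichment at *Neurod6* lay 4.1 kb downstream (7.20, 314 reads).

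*Ptf1a*, which directs inhibitory neurons of the hindbrain and the pancreas, kept all 3 of its parent intervals in ΔSRR2–18 NSPCs, which had 2 more. The interval 30.5 kb upstream had 345 reads (175 depth-scaled, fold enrichment 8.68) in parent and 235 (11.4) in ΔSRR2–18 NSPCs, a log2 ratio of 0.43. The interval 16.5 kb upstream, in exons of *Gm13344* and *Gm33940*, had 148 depth-scaled and 215 reads, a ratio of 0.54. That 9.6 kb downstream had 132 and 119, a ratio of −0.15. The ΔSRR2–18-only intervals lay 43.7 kb downstream (8.57, 176 reads) and 24.1 kb upstream (6.05, 124 reads), and the latter, whose window holds overlapping E-box and AP-1 motifs, was not in the optimal ΔSRR2–18 list.

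Across the 19 overlapping pairs at the 9 genes, the median log2 ratio of depth-scaled reads was −0.75 (quartiles −1.27 and −0.20), beside −0.24 for all pairs. Reads were lower in ΔSRR2–18 NSPCs in 15 of the 19 pairs, beside 61.1% of all pairs. Of the 4 pairs with more reads in ΔSRR2–18 NSPCs, 2 were at *Ptf1a*, and the others were at *Neurod6* and *Neurod2*. Without depth scaling, the median log2 ratio of fold enrichment was −0.31 for members and −0.0027 for all pairs, with 12 of 19 lower beside 50.2% of all pairs. Strongest summits lay more than 50 bp apart in 6 of 19 pairs, beside 27.0% of all pairs. Summits matched within 50 bp gave a median of −0.70 over 27 member summits and −0.34 over all 52849. Base composition moved with these ratios. All pairs with a parent GC content of at least 60% had a median of −0.49, those at 50 to 60% had −0.16 and those under 50% had 0.24. Member pairs in the same classes had −1.22 (10 pairs), −0.82 (3 pairs) and −0.43 (6 pairs), each below the value of all pairs. The part of GC content in the member values was not tested beyond these classes.

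**Figure D4:**
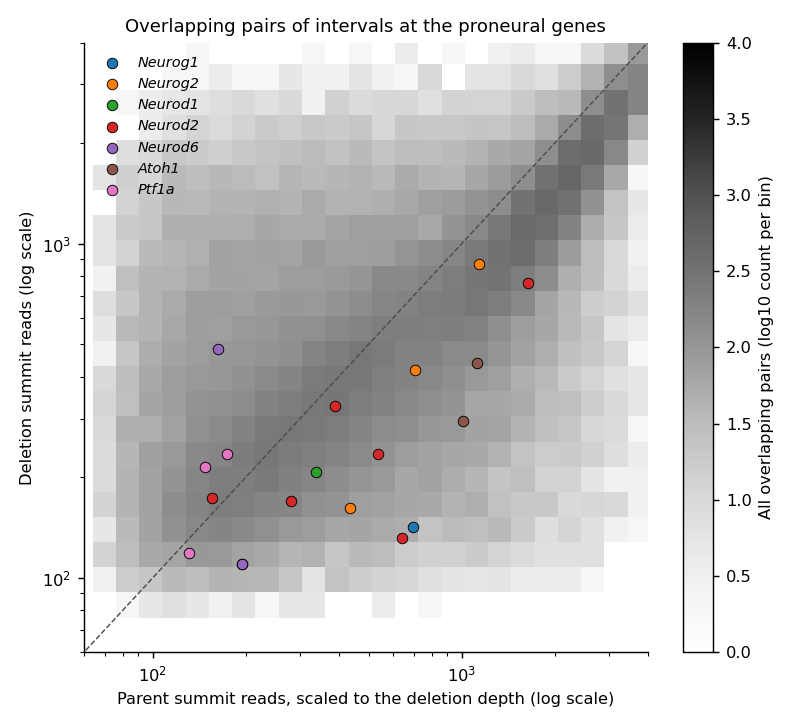
Summit reads of overlapping pairs, with depth-scaled parent reads (x axis) and ΔSRR2–18 (deletion) reads (y axis) on log scales, all pairs as grey bins and the 19 member pairs as points coloured by gene, where 2 *Neurod6* pairs coincide and the dashed line marks equality. Most points lie below the line, and the pair farthest above it is the distal *Neurod6* interval.

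The wider pathway was read from the interval across the TSS, again the outermost annotated start of each gene. Of 13 genes known as proneural targets, 10 had a covered TSS in each list, beside 53.9% (parent) and 56.7% (ΔSRR2–18) of all protein-coding genes. An interval with its strongest summit within 1 kb of any of their TSSs was found at 10 genes in parent and 13 in ΔSRR2–18 NSPCs. The share of all genes by that measure is not given. In each list, 2 of the 10 were covered in that list alone, beside 4.84% and 9.54% of all covered genes. *Insm1* (1646 reads, fold enrichment 6.63) and *Eomes* (1045 reads, 7.50), which mark intermediate progenitors, were covered in parent NSPCs alone. *Rnd2* (1467 reads, 7.60) and *Ebf2* (852 reads, 5.39) were covered in ΔSRR2–18 NSPCs alone. These differences concern that start only. *Insm1* and *Eomes* had a ΔSRR2–18 interval with its strongest summit within 1 kb of a TSS, and *Rnd2* and *Ebf2* had such a parent interval. At the 8 targets covered in both, reads were lower in ΔSRR2–18 NSPCs at all 8, beside 86.8% of all genes, with a median log2 ratio of −1.63, and 6 had a ratio of −1 or lower, beside 11.8% of all genes. *Mfng*, which modifies Notch, had 1430 depth-scaled and 95 reads, a ratio of −3.91. Its ΔSRR2–18 interval had an IDR score of 555, and no interval of the optimal ΔSRR2–18 list covered this TSS. *Hes6* had 2172 and 374 (−2.54), the Notch ligand *Dll1* had 2140 and 432 (−2.31) and the ligand *Dll3* had 1478 and 345 (−2.10). Their log2 ratios of fold enrichment were −1.40, −0.18 and −0.88, and that of *Mfng* was −2.16. Each value is that of the strongest summit in the interval, whose place was not matched between the lists. *Gadd45g* and *Btg2* had ratios of −0.28 and −0.22, beside quartiles of −0.74 and −0.22 over all genes. By fold enrichment, 6 of the 8 were lower, beside 55.7% of all genes, with a median of −0.71.

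Of 6 inhibitors of proneural factors, the same 4 had a covered TSS in each list, beside 53.9% and 56.7% of all genes. All 6 had an interval with its strongest summit within 1 kb of a TSS in each list, among them *Id2* and *Id3*, whose outermost start was not covered. The 4 covered inhibitors differed among themselves. *Id1*, *Id4* and *Hes1* had ratios of −0.06, −0.02 and −0.29, and *Hes5*, the Notch-responsive repressor of neural progenitors, had 3113 depth-scaled reads in parent and 413 in ΔSRR2–18 NSPCs, a ratio of −2.91. Its strongest summit lay 209 bp upstream of the TSS in parent and 738 bp downstream in ΔSRR2–18 NSPCs. Of 10 relatives and partners, 4 had a covered TSS in each list, beside the same shares of all genes. A strongest summit within 1 kb of a TSS was found at 5 of them in parent and 4 in ΔSRR2–18 NSPCs. The E proteins *Tcf3* and *Tcf12* had ratios of −0.22 and −0.81. *Nhlh1* was covered in parent NSPCs alone (157 reads, fold enrichment 3.97), *Bhlhe22* in ΔSRR2–18 NSPCs alone in the conservative lists (809 reads, fold enrichment 10.6). The relatives and partners had 91 parent intervals, of which 60.4% were parent-only, beside 52.3% of the whole parent list. Of their 88 ΔSRR2–18 intervals, 58.0% were in that list alone, beside 63.1% of the whole list. *Olig3* had 5 intervals, all parent-only, and *Nhlh2* had 3, all ΔSRR2–18-only. NSPC markers also had lower reads, with a median of −1.08 over 6 genes and the lowest ratios at *Sox1* (−2.09) and *Fabp7* (−2.06). Their median by fold enrichment was 0.64, with 2 of the 6 lower in ΔSRR2–18 NSPCs (*Sox1* at −1.18 and *Msi1* at −0.60). That of the 3 members was −0.69, with 2 lower and *Neurog2* at 0.42, beside −0.04 over all genes.

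**Figure D5:**
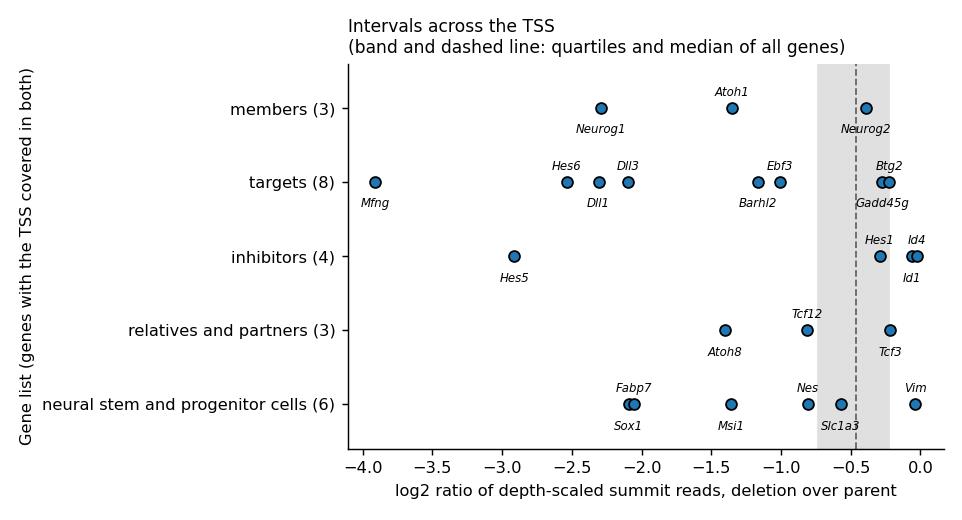
Log2 ratio of depth-scaled summit reads, ΔSRR2–18 (deletion) over parent (x axis), of the interval across the TSS for each gene covered in both lists, by gene list (y axis, number of genes in brackets), with the grey band and dashed line for the quartiles and median of all genes. The 8 lowest values, from −3.91 to −2.06, are those of *Mfng*, *Hes5*, *Hes6*, *Dll1*, *Neurog1*, *Dll3* and the NSPC markers *Sox1* and *Fabp7*.

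Member intervals were richer in GC and in CpG than their lists. The median GC content within 100 bp of the strongest summit was 57.0% for parent and 53.2% for ΔSRR2–18 member intervals, beside 52.2% and 48.3% of all intervals. The ratio of observed to expected CpG was 0.55 and 0.45, beside 0.24 and 0.22. The proneural E-box CAGATG was found in 6 of 34 parent and 5 of 28 ΔSRR2–18 windows (17.6% and 17.9%), beside 21.3% and 20.7% of the lists. Flanks 500 bp away held it at 8 of 34 parent and 4 of 28 ΔSRR2–18 members, beside 14.8% and 14.5% of the flanks of all intervals. The SOX motif stood in 3 windows of each list (8.82% and 10.7%), beside 15.2% and 9.42%, and 3 of the 15 parent-only intervals held it, beside 18.8% of all parent-only intervals. Of the 3 ΔSRR2–18 windows with it, 2 belonged to shared intervals. AP-1 sites, in 37.9% of all ΔSRR2–18 intervals and 7.28% of all parent intervals, were found in 5 of 28 ΔSRR2–18 and 1 of 34 parent member windows (17.9% and 2.94%).

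The HES motif CACGNG went the other way, at 13 of 34 parent and 7 of 28 ΔSRR2–18 windows (38.2% and 25.0%), beside 16.0% and 14.1% of the lists. Flanks 500 bp away held it at 8 of 34 parent and 6 of 28 ΔSRR2–18 members, beside 10.8% and 9.9% of the flanks of all intervals. The higher share was thus not confined to the summits. The HES motif holds a CpG, so the higher CpG ratio of the members moves with it, and the part of CpG was not tested. In the RefSeq promoters of the 9 genes, 6 held it (*Neurog1*, *Neurog3*, *Neurod1*, *Neurod2*, *Atoh1* and *Ptf1a*), beside 27.5% of 32817 promoters of that length. The E-box stood in the promoter of 1 gene (*Neurod2*) and the SOX motif in 3 (*Neurog1*, *Neurog3* and *Atoh1*), beside 17.2% and 13.6% of all promoters. The RBPJ motif TGGGAA was found in 6 of 34 and 3 of 28 windows, beside 21.2% and 20.5%, and the PBX–HOX motif TGATTNAT in 1 and 2, beside 2.16% and 7.60%. A match describes these letters in these windows and not a bound factor.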

How the data were processed

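ATAC-seq reads of 3 parent and 3 ΔSRR2–18 NSPC cultures were processed by the authors with the ENCODE ATAC-seq pipeline, which calls peaks with MACS2 and combines the cultures of a genotype by IDR. The depth per culture was not recovered from the pooled lists, and the labels give the same read range for every culture.

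The 4 deposited lists (conservative and optimal, per genotype) are in mm10 coordinates. For each peak, the authors deposited the IDR score, the −log10 p of MACS2, its fold enrichment and the summit position, computed on pooled reads. The conservative lists were used here. IDR scores reached down to 540.

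Summit reads and background were solved from fold enrichment and −log10 p under the Poisson model of MACS2, and 99.9993% of parent and 100% of ΔSRR2–18 values came out whole (tolerance 0.05). The ratio of the lowest backgrounds gave the relative depth. TSSs were those of protein-coding genes in the GENCODE M21 basic annotation (21938 genes), and an overlap of 1 bp made intervals shared. For TSS coverage, only the outermost annotated start of each gene was used. Motifs were searched as exact letters, on both strands, in windows reaching 100 bp to each side of the strongest summit. Guide sequences from the study's supplement were located by exact match in GRCm38. Python 3.11.15 with numpy 2.4.6, pandas 2.3.3 and scipy 1.17.1 was used, and read recovery, overlaps, nearest TSSs and motif scans were tested on simulated data.

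The 9 genes, the pathway and marker lists and the alternatives were chosen with earlier results of these data known. The text gives values for all 9 genes, for each interval within 1 kb of their TSSs and for the interval with the highest fold enrichment of each list and class (shared or not) at each gene. No test between genotypes was made, since each has 1 pooled list. Some further intervals, and the pathway genes named, were picked after their values were seen. Alternatives were the optimal lists, an IDR score of at least 830, other distances, TSS sets, list lengths and overlaps, and a motif window of 50 bp. Alternatives added after seeing the data were matched summits, a minimum of 200 reads and the settings for covered TSSs.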

Additional observations from a re-analysis of the deposited data

How the results depend on the processing

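Within 10 kb of a TSS, 17 parent and 15 ΔSRR2–18 intervals remained, 7 and 6 of them without counterpart. Within 100 kb, 18 ΔSRR2–18 intervals had no counterpart. With TSSs of genes of every biotype, 16 ΔSRR2–18 intervals remained, 5 without counterpart. With lists of equal length, 24 parent intervals had no counterpart and 17 ΔSRR2–18 intervals remained. The shares over the whole lists under the settings named so far are not given, so these counts do not set the members apart from the lists. With at least 200 depth-scaled reads, 4 ΔSRR2–18 intervals had no counterpart. In the optimal lists, 5 ΔSRR2–18 genes had a covered TSS in place of 3. Within 50 bp of the summit, the E-box, SOX and AP-1 motifs stood in 6, 2 and 3 windows, in place of 11, 6 and 6 over both lists. The median log2 ratio over member pairs stayed negative under the 6 alternatives run, from −1.05 within 10 kb to −0.31 for fold enrichment, and was −0.51 with the median of all pairs set to 0. Of 55 values under alternatives, 41 stayed within the limits set for a like value, 14 moved and 0 reversed. Most of these values are counts, which have no sign, so only the medians of log2 ratios could reverse. The limits were wide enough that 21 parent intervals without counterpart in the optimal lists, in place of 15, lay within them. For the optimal lists and the list length the cause was not tested.

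No paired analysis was possible because the lists pool the cultures of a genotype, and for the same reason no culture could be left out in turn. The lowest background was 38.8 reads for parent and 19.7 reads for ΔSRR2–18 peaks, the strongest summits went down to 65 and 31 reads, and the part of depth in which intervals were found was not tested.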
